A study of Mus musculus with 6 samples.

Results

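The mitosis genes are a set of 46 mouse genes that encode the machinery of cell division: the kinases and cyclins that start mitosis, the spindle checkpoint, the anaphase trigger, spindle motors, condensins and cytokinesis proteins. They were taken from a fixed list of gene symbols, which was drawn up with earlier results of these data known. Of the 46, 41 had a probe among the 16593 genes named on the array. Their messages were measured in thymus of Rag2/pfp knockout mice (3 arrays) and of wild-type mice (3 arrays), with 1 array of 1-colour Illumina mouse bead probes per sample. Rag2 is needed, with Rag1, to cut and join the gene segments of antigen receptors, and pfp is an older name for perforin, the pore-forming protein of killer lymphocytes. Both genes are targeted in the same animals, so the parts played by each cannot be told apart. The labels name no agent, age, sex or strain, and do not say that the 3 samples of a genotype came from separate animals, so the spread behind each p-value may be technical.

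As background, developing T cells divide in bursts. Thymocytes that lack both CD4 and CD8 (double-negative) divide before and after they pass the pre-T cell receptor checkpoint, and the large cells that follow give rise to resting cells that carry both (double-positive). Without RAG proteins no receptor chain is assembled, and thymocytes stop at the double-negative stage. Most mitosis genes are transcribed mainly late in the cell cycle, and many are known to be controlled through a pair of short promoter elements: the CHR element, read by the DREAM, B-Myb and FoxM1 forms of the MuvB complex, and CCAAT boxes, read by the factor NF-Y.

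All 29 mitosis genes that could be tested were lower in the mean of the knockout thymus than in the wild-type mean, and 23 of the 29 (79.3%) fell past an adjusted p of 0.05, with 0 higher. Among all 9849 genes tested, 5.57% fell and 6.09% rose. The median difference of the 29 genes was −1.32 on the log2 scale, which leaves 40.1% of the wild-type signal, against a median of 0.01 over all genes tested. The middle range was narrow: the quartiles of the 29 differences were −1.41 and −1.16, while those of all genes were −0.33 and 0.40. At least 2-fold lower were 24 of the 29, against 6.64% of all genes. The knockout and wild-type arrays did not overlap for 27 of the 29, against 17.3% of all genes without overlap in that direction.

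Every value below is a background-corrected, quantile-normalized probe signal on the log2 scale, and every difference is knockout minus wild type, so 1 unit is a 2-fold change. Genes were tested with limma across all probes above background on at least 3 of the 6 arrays, with Benjamini-Hochberg adjustment over all of them. For each of the 29 tested mitosis genes, the probe that stands for it was above background on all 6 arrays. None of these probes entered the test through 1 genotype alone. Without knockout 1, wild type 1 or wild type 3, 1 mitosis gene (Kif11) remained past the threshold, and the share of all genes called lower was 0.965%, 0.944% and 0.853% in these fits. Without knockout 2, knockout 3 or wild type 2, 16, 19 and 22 mitosis genes passed, beside 4.49%, 2.89% and 7.85% of all genes. In the fits that leave out knockout 1, wild type 1 or wild type 3, 26 or 27 of the 29 genes were lower at an unadjusted p of 0.05. On all 6 arrays, 27 of the 29 genes and 14.2% of all genes were lower at this threshold. The share of all genes at this threshold in the smaller fits is not given here. In a bulk sample, fewer dividing cells and less message per dividing cell cannot be told apart.

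**Figure D1:**
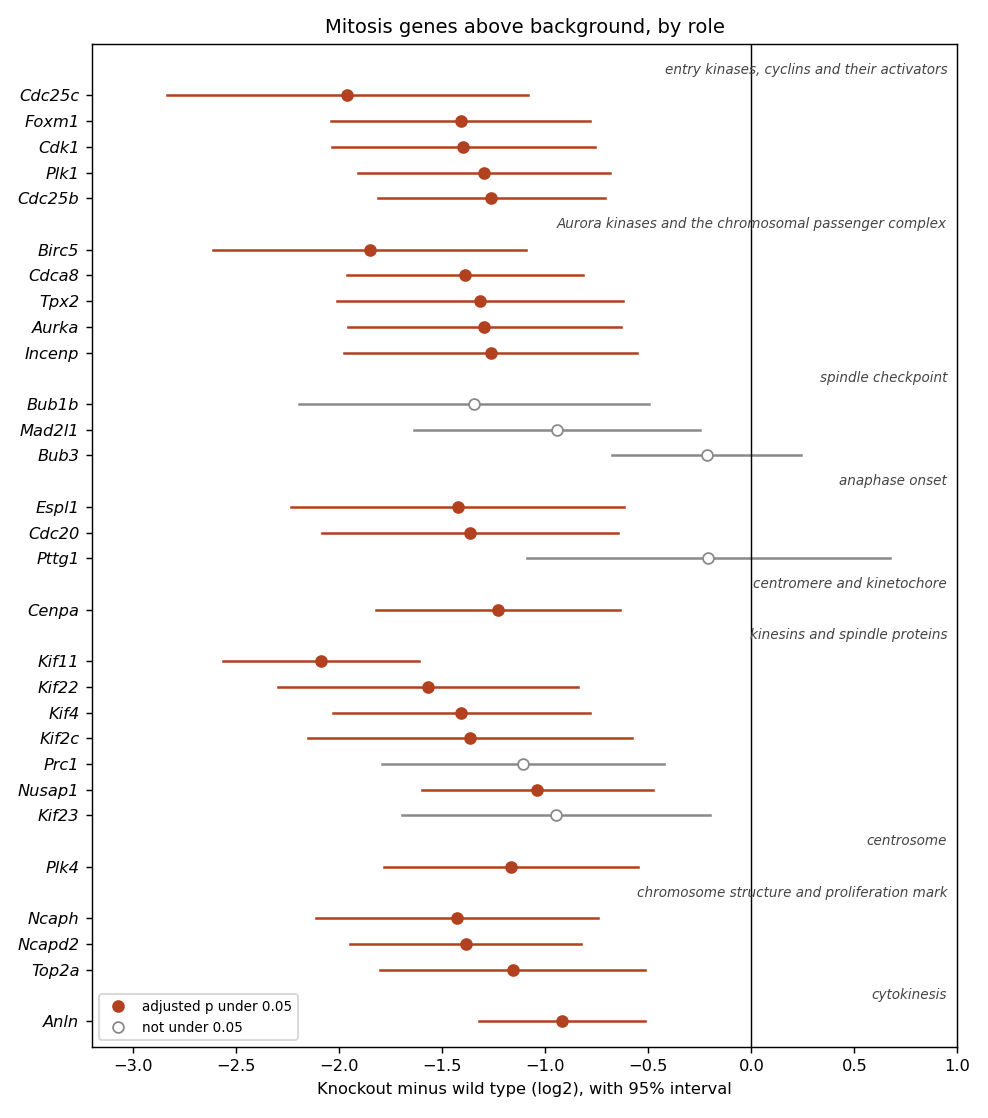
Difference (knockout minus wild type, log2) of each of the 29 tested mitosis genes, grouped by role, as points with 95% intervals. The points run from −2.09 for Kif11 to −0.21 for Pttg1, and all lie below 0.

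As a check of the labels, the Rag2 probe read 6.98, 6.73 and 7.88 in knockout 1 to 3, against 9.17, 8.17 and 8.78 in wild type 1 to 3. Its difference of −1.51 had an SE of 0.39 and a limma adjusted p of 0.0579, and its groups did not overlap. The probe was above background on 3 of 3 arrays of each genotype. Rag1, which the labels do not name as targeted, differed by −2.13 (limma adjusted p = 0.00734). A lower signal was thus not particular to the targeted gene, and the Rag2 values alone cannot check the labels. The probe that represents Prf1 (perforin) differed by −0.64 (adjusted p = 0.0866) and the other Prf1 probe by 0.06, and neither passed the test. The positions of these probes relative to the deletions are not known here. Double-positive markers fell for 6 of 8 tested genes, with a median difference of −2.72 (Cd8b1, −7.32), and double-negative markers rose for 5 of 6, with a median of 2.29 (Il2ra, 3.79). Of 6 tested genes listed as T-lineage markers, 1 (Cd2) fell, and the median was −0.33. Thy1 differed by −1.14 (adjusted p = 0.0555) and Cd3g by 0.74 (adjusted p = 0.109), each without overlap of the arrays. Markers of cortical epithelium rose for 6 of 7 and those of medullary epithelium fell for 2 of 7. The 6 include Foxn1, which was above background on 3 knockout and 0 wild-type arrays. It entered the test through its knockout arrays alone. The arrays detected 13729 to 13878 of 25697 probes each.

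The promoters of 11 genes described below are shown first, because letters close to the gene start were not used to choose the mitosis genes. They were picked to show both elements together in genes that fell and in genes that did not pass the test, and neither element in 1 gene of each kind. Each sequence is the 100 bases before a start listed for the gene in RefSeq's GRCm38.p6 tables, 5′ to 3′ on the gene's strand. The listed start is not always the outer end of the annotated gene. Capitals mark a CHR element (TTTGAA or TTTAAA, or TTCAAA where TTTGAA is on the other strand) or a CCAAT box (ATTGG on the other strand). The first 9 genes hold both, of which Prc1 and Bub3 do so upstream of 1 of their 2 starts in the table (the one shown), and Pttg1 and Ncaph hold neither. The Pttg1 start used, 43425981, lies inside the annotated gene (43420244 to 43427463, minus strand). The bases before the outer end of Pttg1 were not searched.
Kif11, chr19:37376282-37376381, plus strand: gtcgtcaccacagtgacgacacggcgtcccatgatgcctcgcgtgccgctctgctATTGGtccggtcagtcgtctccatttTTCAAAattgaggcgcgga
Kif22, chr7:127042421-127042520, minus strand: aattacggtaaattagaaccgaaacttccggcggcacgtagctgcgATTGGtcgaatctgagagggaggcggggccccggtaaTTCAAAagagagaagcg
Cdk1, chr10:69352913-69353012, minus strand: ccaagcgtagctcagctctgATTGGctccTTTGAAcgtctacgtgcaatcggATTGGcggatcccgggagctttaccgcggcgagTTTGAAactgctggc
Cdc20, chr4:118437344-118437443, minus strand: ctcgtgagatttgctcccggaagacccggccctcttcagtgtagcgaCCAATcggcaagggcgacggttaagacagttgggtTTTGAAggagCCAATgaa
Plk1, chr7:122159335-122159434, plus strand: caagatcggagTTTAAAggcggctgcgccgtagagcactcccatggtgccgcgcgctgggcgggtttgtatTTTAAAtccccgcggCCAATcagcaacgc
Top2a, chr11:99024190-99024289, minus strand: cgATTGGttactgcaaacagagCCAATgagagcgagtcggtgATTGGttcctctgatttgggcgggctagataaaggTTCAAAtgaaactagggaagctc
Espl1, chr15:102296193-102296292, plus strand: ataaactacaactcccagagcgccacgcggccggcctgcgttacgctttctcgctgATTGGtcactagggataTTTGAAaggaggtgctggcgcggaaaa
Prc1, chr7:80294376-80294475, plus strand: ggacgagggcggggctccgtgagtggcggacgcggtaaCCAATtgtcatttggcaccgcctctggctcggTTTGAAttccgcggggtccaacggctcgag
Bub3, chr7:131560270-131560369, plus strand: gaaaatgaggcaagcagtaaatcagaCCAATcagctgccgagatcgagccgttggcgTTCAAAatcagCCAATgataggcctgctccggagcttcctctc
Pttg1, chr11:43425982-43426081, minus strand: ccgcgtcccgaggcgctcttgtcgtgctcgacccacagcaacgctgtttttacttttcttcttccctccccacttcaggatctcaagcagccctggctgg
Ncaph, chr2:127133955-127134054, minus strand: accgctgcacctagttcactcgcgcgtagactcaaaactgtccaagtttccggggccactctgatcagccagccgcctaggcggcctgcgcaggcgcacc

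In Kif11 the CHR letters began at −19 and the CCAAT box at −45 from the gene start, 26 bases apart. The CHR letters lay between the CCAAT box and the gene start in Kif22, Cdk1, Top2a, Espl1 and the Prc1 window as well. In these the first bases were 37, 33, 35, 17 and 32 bases apart. Each was counted from the CHR match nearest the start to its nearest CCAAT box. For Cdk1 these were at −15 and −48, and it also holds CHR letters at −71 and a CCAAT box at −80. Cenpa, which fell and holds both but is not shown, had them 69 bases apart, at −17 and −86. In Cdc20, Plk1 and Bub3 the nearest CCAAT box lay on the start side of the CHR letters. Kif11, Kif22, Cdk1, Cdc20, Plk1, Top2a, Espl1 and Ncaph fell in the knockout thymus, and Prc1, Bub3 and Pttg1 did not pass the test. Of the 25 tested mitosis genes with a window, 10 held both elements in the 100 bases before a start, and 8 of these fell. Neither was there in 9, of which 6 fell: Birc5, Ncaph, Kif2c, Plk4, Nusap1 and Anln. The Kif2c start used, 117178772, also lies inside the annotated gene, whose outer end is at 117182624. These capitals are matches of letters, and no binding was measured.

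Of the 46 mitosis genes, 39 had 1 or more promoter windows in the table (250 bases before to 50 after a start, 42 windows), and 31 of the 39 (79.5%) held a CHR element on either strand. Over all 27025 genes of the table the share was 30.6%, and over the 7986 with a tested probe it was 23.0%. TTTGAA was in 27 of the 39 and TTTAAA, which reads the same on both strands, in 9. A CCAAT box was in 31 of the 39 (79.5%), against 41.1% of all genes and 43.2% of tested genes. Both were in 27 of the 39 (69.2%), against 12.2% of all genes. A cluster of both, each beginning no farther than 100 bases before the start, was chosen after the windows had been seen, and it was in 24 of the 39 (61.5%) against 3.50% of all genes.

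**Figure D2:**
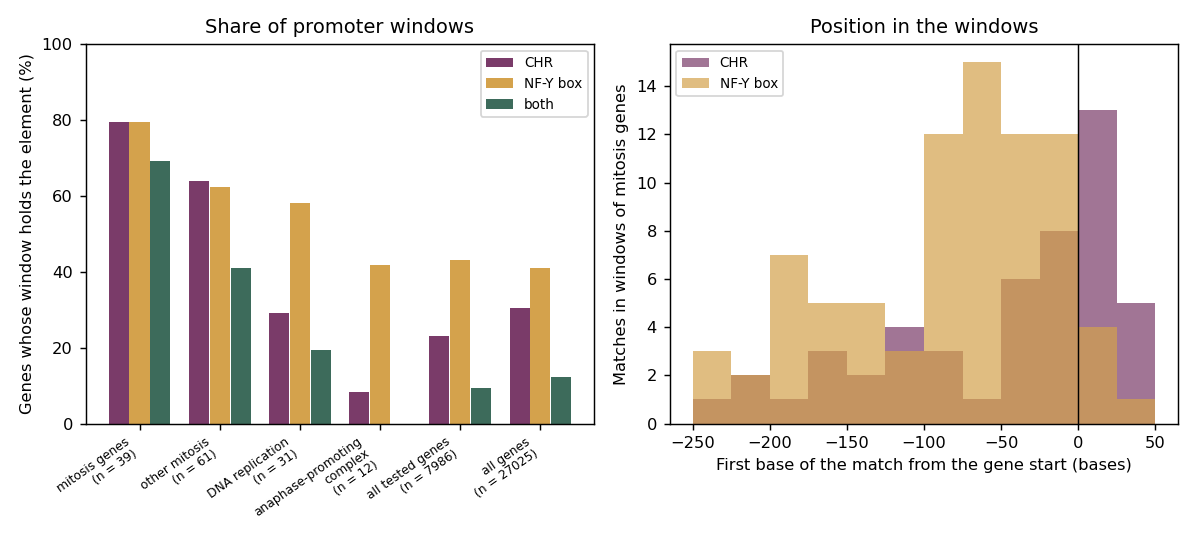
Left, percent of genes whose promoter window holds a CHR element, a CCAAT (NF-Y) box or both, for the mitosis genes (n = 39), further lists, all tested genes and all genes of the table. Right, number of matches in the windows of the mitosis genes by the position of their first base, in bases from the gene start. Both elements were in 69.2% of the mitosis genes and 12.2% of all genes, and CHR matches were most frequent within 50 bases on either side of the start.

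Among other lists, both elements were in 41.0% of 61 further mitosis genes, in 19.4% of 31 replication genes and in 0 of 12 genes of the anaphase-promoting complex list. They were in 4 of 12 regulators of late cell cycle transcription (33.3%), a list of which 1 of 11 tested genes fell, and in 1 of 6 cohesin genes and 1 of 9 quiescence genes. The tested mitosis genes with both elements within the cluster numbered 14, of which 11 fell, with a median difference of −1.33. The 4 with neither element in their windows were Mad2l1, Ncaph, Nusap1 and Pttg1 (its window lies inside the gene), of which Ncaph and Nusap1 fell. Genes that fell and genes that did not pass the test were thus found both with and without these letters. Among all tested genes, 38 of the 226 with the cluster fell (16.8%), as did 189 of the 3568 with neither element (5.30%). Leaving out all genes of the mitosis and replication lists, 20 of the 201 remaining genes with the cluster fell (9.95%) and 10 rose. Of the 522 remaining genes with both elements but not the cluster, 40 fell (7.66%) and 22 rose. Of the 3548 remaining genes with neither element, 183 fell (5.16%) and 224 rose.

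The kinases that drive entry into mitosis and their activators fell for all 5 tested genes of this role, by −1.96 to −1.26. Cdc25c, a phosphatase that activates Cdk1, read 7.05, 6.33 and 7.55 in knockout 1 to 3, against 9.17, 8.48 and 9.17 in wild type 1 to 3. All 3 knockout arrays lay below the lowest wild-type array. Its difference was −1.96 (SE 0.36, 95% interval −2.84 to −1.09, adjusted p = 0.0251), which leaves 25.7% of the wild-type signal. A second tested Cdc25c probe differed by −2.09.

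Foxm1, the transcription factor that switches on many late cell cycle genes, read 8.45, 7.88 and 8.78 in knockout 1 to 3, against 9.95, 9.60 and 9.79 in wild type 1 to 3. The groups did not overlap, and the difference was −1.41 (SE 0.26, 95% interval −2.04 to −0.78, adjusted p = 0.0249). Cdk1, the kinase whose activity defines mitotic entry, read 10.02, 9.31 and 10.21 in knockout 1 to 3, against 11.41, 11.22 and 11.11 in wild type 1 to 3. Its difference was −1.40 (SE 0.26, adjusted p = 0.0259), 38.0% of wild type. Plk1, which acts in centrosome maturation and chromosome alignment, differed by −1.30 (adjusted p = 0.0280), and the phosphatase Cdc25b by −1.26 (adjusted p = 0.0235).

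The Aurora kinases and their partners fell for all 5 tested genes, with a median of −1.32. Birc5 (survivin), which brings Aurora kinase B to the centromere, read 10.77, 9.96 and 11.05 in knockout 1 to 3, against 12.66, 12.17 and 12.50 in wild type 1 to 3. Every knockout array lay more than 1 unit below every wild-type array. The difference was −1.85 (SE 0.31, 95% interval −2.61 to −1.09, adjusted p = 0.0198), 27.7% of wild type, and the other 2 Birc5 probes differed by −1.65 and −1.67.

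Cdca8 (borealin), another subunit of the same chromosomal passenger complex, read 8.64, 8.06 and 8.89 in knockout 1 to 3, against 9.96, 9.93 and 9.88 in wild type 1 to 3. Its wild-type arrays were closely matched (SD 0.04) and its knockout arrays were spread (SD 0.43), with a difference of −1.39 (SE 0.24, adjusted p = 0.0202). Tpx2, the spindle protein that activates Aurora kinase A, read 7.19, 6.92 and 7.87 in knockout 1 to 3, against 8.75, 8.34 and 8.83 in wild type 1 to 3. The nearest arrays, knockout 3 and wild type 2, were under 1 unit apart, and the difference was −1.32 (SE 0.29, adjusted p = 0.0384). Aurka itself differed by −1.30 (adjusted p = 0.0351) and Incenp, the scaffold of the passenger complex, by −1.26 (adjusted p = 0.0451).

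The spindle checkpoint, which delays anaphase until chromosomes are attached, was the role with 3 tested genes of which 0 passed the adjusted threshold (2 passed an unadjusted p of 0.05). Bub1b, the checkpoint kinase BubR1, read 9.39, 8.48 and 9.44 in knockout 1 to 3, against 10.70, 9.92 and 10.72 in wild type 1 to 3. Replicate 2 was the lowest array in both genotypes, and the groups did not overlap. The difference was −1.35 (SE 0.35, 95% interval −2.19 to −0.50, adjusted p = 0.0613), and it passed with the replicate number as a block (adjusted p = 0.00757). With the block 11.8% of all genes were lower, against 5.57% without it. Mad2l1 and Bub3 did not pass with the block.

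Mad2l1, which inhibits the anaphase activator Cdc20, read 10.20, 9.49 and 10.57 in knockout 1 to 3, against 11.13, 11.03 and 10.94 in wild type 1 to 3. The difference was −0.94 (SE 0.29, 95% interval −1.64 to −0.25, adjusted p = 0.0911). Bub3, which carries the checkpoint kinases to the kinetochore, read 9.90, 9.50 and 9.97 in knockout 1 to 3, against 10.07, 9.83 and 10.13 in wild type 1 to 3. Its groups overlapped, and its interval of −0.67 to 0.24 lay above the −1.32 median of the mitosis genes (difference −0.22, adjusted p = 0.515).

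At anaphase onset 2 of the 3 tested genes fell. Espl1 (separase), the protease that cuts cohesin, read 8.48, 7.61 and 8.69 in knockout 1 to 3, against 9.97, 9.30 and 9.77 in wild type 1 to 3. The groups did not overlap, with a difference of −1.42 (SE 0.33, adjusted p = 0.0464). Cdc20, which activates the anaphase-promoting complex, read 11.13, 10.67 and 11.73 in knockout 1 to 3, against 12.64, 12.28 and 12.71 in wild type 1 to 3. Its difference was −1.37 (SE 0.30, 95% interval −2.09 to −0.65, adjusted p = 0.0380), and its other 3 tested probes differed by −1.61, −1.55 and −1.37.

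Pttg1 (securin), which holds separase inactive until anaphase, did not pass the test. It read 7.31, 6.04 and 7.22 in knockout 1 to 3, against 7.18, 6.82 and 7.19 in wild type 1 to 3. Knockout 1 and knockout 3 lay above every wild-type array and knockout 2 below every one. The difference was −0.21 (SE 0.36, 95% interval −1.09 to 0.67, adjusted p = 0.754), and it was 0.20 without knockout 2. No test was made of the difference between Pttg1 and Espl1.

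**Figure D3:**
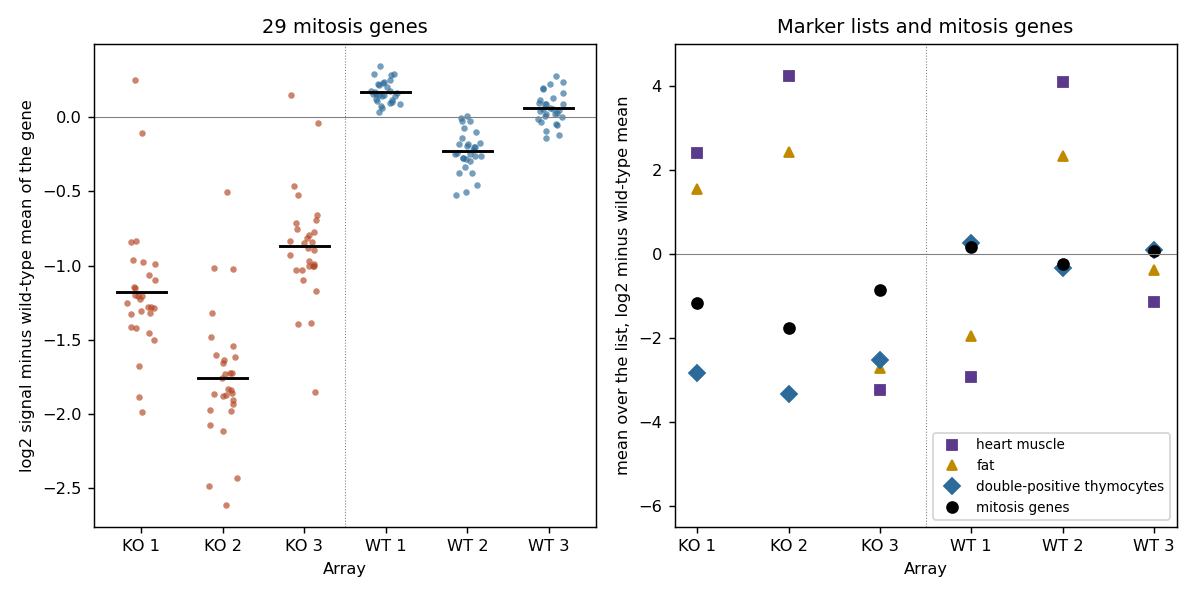
Left, each of the 29 tested mitosis genes on each array as its log2 signal minus its wild-type mean, 1 point per gene, with bars at the mean of the array and knockout (KO) arrays left of wild-type (WT) arrays. Right, the mean of the same quantity over the mitosis genes and over heart muscle, fat and double-positive thymocyte markers. Knockout 2 is the lowest array on average at −1.76, and heart and fat markers are high on knockout 1, knockout 2 and wild type 2.

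Kinesins and spindle proteins had the largest difference of the 29 genes, and 5 of their 7 tested genes fell. Kif11, the motor that pushes spindle poles apart, read 8.82, 8.37 and 8.95 in knockout 1 to 3, against 10.92, 10.73 and 10.75 in wild type 1 to 3. Its arrays were tight within each genotype, at 8.71 ± 0.30 in knockout and 10.80 ± 0.11 in wild type (SD, n = 3 each). The difference was −2.09 (SE 0.20, 95% interval −2.57 to −1.61, limma adjusted p = 0.00484), 23.5% of wild type. Among the probes that represent the other mitosis genes, the lowest adjusted p was 0.0192.

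Kif22, a chromosome-binding kinesin that pushes chromosome arms outward, read 11.40, 10.79 and 11.81 in knockout 1 to 3, against 13.04, 12.56 and 13.10 in wild type 1 to 3. The difference was −1.57 (SE 0.30, adjusted p = 0.0272), 33.7% of wild type. Kif4, a motor of chromosomes and the spindle midzone, read 8.91, 8.49 and 9.35 in knockout 1 to 3, against 10.48, 10.07 and 10.42 in wild type 1 to 3. Its 3 probes differed by −1.41, −1.27 and −1.19, all past the threshold. Kif2c, which takes microtubules apart at the centromere, differed by −1.36 with the highest adjusted p of the 23 called genes (0.0480).

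The midzone proteins Prc1 and Kif23 did not pass the test. Prc1, which bundles the microtubules of the midzone, read 12.27, 11.61 and 12.54 in knockout 1 to 3, against 13.49, 12.97 and 13.30 in wild type 1 to 3. Its difference was −1.11 (SE 0.28, adjusted p = 0.0580; with the replicate number as a block, 0.0164). Kif23, the motor of the centralspindlin complex, read 10.55, 9.91 and 10.87 in knockout 1 to 3, against 11.74, 11.02 and 11.42 in wild type 1 to 3. Its difference was −0.95 (SE 0.31, adjusted p = 0.107; with the block, 0.0259). For both genes each knockout array lay below each wild-type array.

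Nusap1, which binds and bundles spindle microtubules, was the gene whose tested probes differed in call. The probe that represents the gene read 10.56, 10.38 and 11.04 in knockout 1 to 3, against 11.90, 11.44 and 11.76 in wild type 1 to 3 (difference −1.04, adjusted p = 0.0406). The other probe read 6.63, 6.20 and 7.04 in knockout 1 to 3, against 7.37, 6.75 and 7.14 in wild type 1 to 3. Its groups overlapped, with a difference of −0.47 (95% interval −1.13 to 0.20, adjusted p = 0.327). The other 7 genes with more than 1 tested probe had all their probes past the threshold, so that 20 of the 21 probes of these 8 genes were lower. The 20 include an Anln probe that entered the test through its wild-type arrays alone.

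**Figure D4:**
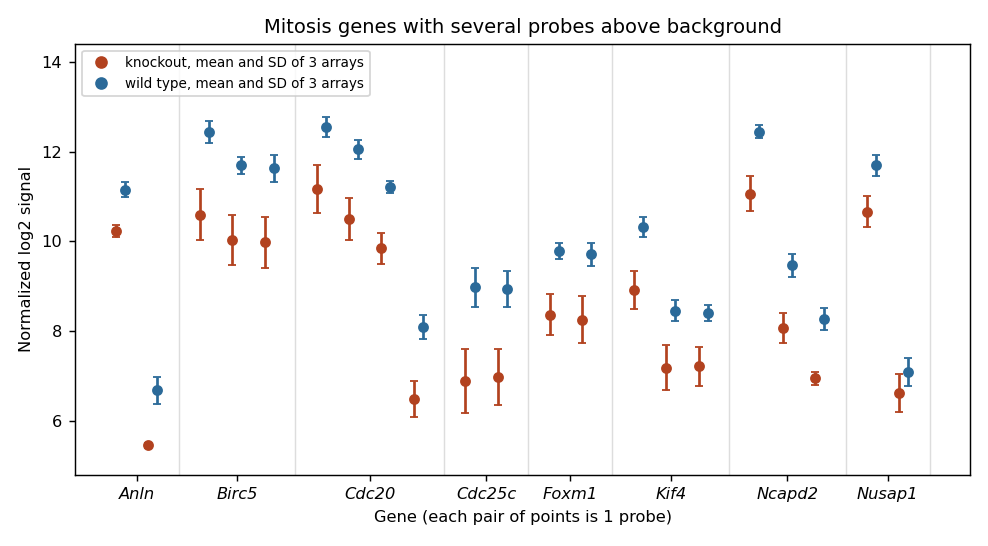
Normalized log2 signal of every tested probe of the 8 mitosis genes with more than 1 tested probe, as the mean and SD of 3 knockout arrays beside the mean and SD of 3 wild-type arrays. Of the 21 probes, 20 were lower past the threshold, and the exception is the second Nusap1 probe with a difference of −0.47. The 20 include an Anln probe that was above background on wild-type arrays alone.

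Cenpa, the histone variant that marks centromeres, was the tested gene of the centromere. It read 12.50, 12.05 and 12.87 in knockout 1 to 3, against 13.85, 13.50 and 13.76 in wild type 1 to 3. The difference was −1.23 (SE 0.24, adjusted p = 0.0298), 42.6% of wild type. Plk4, the kinase that starts centriole duplication, read 6.58, 6.17 and 7.08 in knockout 1 to 3, against 7.92, 7.75 and 7.65 in wild type 1 to 3. Its difference was −1.17 (SE 0.26, adjusted p = 0.0387). The arrays of the 2 genotypes did not overlap for either gene.

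All 3 tested genes of chromosome structure fell. The condensin subunit Ncaph, part of the ring that compacts chromosomes, read 10.53, 9.86 and 10.84 in knockout 1 to 3, against 12.06, 11.62 and 11.84 in wild type 1 to 3 (difference −1.43, SE 0.28, adjusted p = 0.0297). A second condensin subunit, Ncapd2, read 11.29, 10.61 and 11.27 in knockout 1 to 3, against 12.53, 12.27 and 12.53 in wild type 1 to 3. Its 3 probes differed by −1.40, −1.39 and −1.31, within the SE of 0.23 of the first-ranked probe. Top2a, the topoisomerase that untangles sister chromatids, read 11.58, 10.82 and 11.75 in knockout 1 to 3, against 12.62, 12.44 and 12.56 in wild type 1 to 3 (difference −1.16, SE 0.27, adjusted p = 0.0435).

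Anln (anillin), a scaffold of the contractile ring, had the smallest difference among the genes that fell. It read 10.16, 10.14 and 10.40 in knockout 1 to 3, against 11.30, 10.96 and 11.20 in wild type 1 to 3. The knockout arrays were close together (SD 0.14), and the difference was −0.92 (SE 0.17, 95% interval −1.32 to −0.52, adjusted p = 0.0235), 52.8% of wild type. A second Anln probe was above background on wild-type arrays and on 0 of 3 knockout arrays, where the signal is only a bound. This probe entered the test through its wild-type arrays alone, so its p-value is not given. Counted against the lowest detected signal of each knockout array, it was at least 2.27-fold lower in knockout.

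Of the remaining genes, 12 had 13 probes that were above background on 0 of 6 arrays and so gave no comparison. They were the cyclins Ccna2 and Ccnb2, the Cdk1-binding proteins Cks1b and Cks2, the checkpoint kinases Bub1 and Ttk, the ubiquitin-conjugating enzyme Ube2c, the kinetochore motor Cenpe, the spindle proteins Kif20a and Hmmr, the centrosomal kinase Nek2 and the cytokinesis factor Ect2. Together with 5 further dim probes of Cdk1, Cdc25c, Nusap1 and Anln, these probes read 4.40 to 5.28, and the smallest detection p among them was 0.0902. Because wild-type thymus was also below background, these probes show neither presence nor absence of the messages. Of these 12 genes, 10 had a promoter window, of which 7 held a CHR element and 10 a CCAAT box. Mki67, Ccnb1, Aurkb, Cenpf and Racgap1 had no probe named in the annotation used here.

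The arrays of a genotype moved together across the mitosis genes. Averaged over the 29 genes, the arrays stood at −1.18, −1.76 and −0.87 from the wild-type mean in knockout 1 to 3, against 0.17, −0.23 and 0.06 in wild type 1 to 3. Knockout 2 was the lowest knockout array for 29 of 29 genes, and wild type 2 was the lowest wild-type array for 25. Heart muscle markers differed between arrays within each genotype: the summed linear signal of 5 genes was 12402, 44012 and 143 in knockout 1 to 3, against 187, 34919 and 779 in wild type 1 to 3. That of 5 fat markers was 37385, 64352 and 3691 in knockout 1 to 3, against 3625, 58170 and 10500 in wild type 1 to 3.

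Within each genotype, the order of the arrays by mitosis genes was the reverse of their order by heart markers. Over the mitosis genes, knockout 3, with the lowest heart signal of all arrays, stood at −0.87. Wild type 2, with the second highest heart signal, stood at −0.23. Without replicate 2 of both genotypes, a setting chosen after the data had been seen, 26 of the 29 genes were lower, the 23 and Bub1b, Prc1 and Kif23, and so were 1378 of all 9849 genes. The part of neighbouring tissue in the size of the differences was not tested. The T-lineage markers stood at −0.62, −1.36 and −0.61 from the wild-type mean in knockout 1 to 3, against 0.16, −0.28 and 0.11 in wild type 1 to 3, so that replicate 2 was the lowest of each genotype there as well. These means over 6 genes include Cd2, which fell to 6.24% of its wild-type signal, and the medians were −0.18, −0.78 and −0.02 in knockout 1 to 3.

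Further genes of division, outside the 46, were taken from lists by role. Of 51 tested mitosis genes in such a list, 17 fell and 0 rose (33.3%), with a median of −1.04, and all 51 differences were below 0. With the replicate number as a block, 39 of the 51 fell, and 11.8% of all genes did. Kif18b, a kinesin that shortens microtubules, read 8.04, 7.02 and 8.52 in knockout 1 to 3, against 10.29, 9.67 and 10.18 in wild type 1 to 3 (difference −2.19, SE 0.40, adjusted p = 0.0251). Depdc1b differed by −2.19 (adjusted p = 0.0169), the histone kinase Haspin by −1.82 (adjusted p = 0.0126) and the condensin II subunit Ncapg2 by −1.71 (adjusted p = 0.00897). Among the genes not called were Tubb5, a tubulin used outside mitosis too (−0.59, adjusted p = 0.135), and Hjurp, the chaperone of Cenpa (−0.35, adjusted p = 0.421).

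Replication genes, which act in the preceding S phase, fell for 6 of 30 tested genes (20.0%), with a median of −0.75 and all 30 differences below 0. Rrm2, a subunit of ribonucleotide reductase, differed by −2.00 (adjusted p = 0.0145), the helicase cofactor Cdc45 by −1.42 (adjusted p = 0.00912) and the cyclins Ccne1 and Ccne2 by −1.42 and −1.34. Mcm10 and Cdc6, which act at replication origins, made up the 6. The helicase subunits Mcm4 and Mcm5 differed by −0.35 and −0.80 and did not pass. The difference between the mitosis and the replication genes was not tested.

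The anaphase-promoting complex list, made up of core subunits and Fzr1, an activator that can take the place of Cdc20, fell for 0 of 10 tested genes and rose for 0, with a median of −0.18. The 1 gene of the list that was lower at an unadjusted limma p of 0.05 was Fzr1 (−0.48, adjusted p = 0.134). Of 6 tested cohesin genes 0 fell, and Pds5b, which regulates cohesin release, rose. It read 13.99, 13.37 and 14.47 in knockout 1 to 3, against 12.62, 11.99 and 12.52 in wild type 1 to 3 (difference 1.57, SE 0.32, adjusted p = 0.0331). Its groups did not overlap, and replicate 2 was again the lowest array of each genotype.

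The regulators of late cell cycle transcription (E2F, MuvB, B-Myb and NF-Y genes) fell for 1 of 11 tested genes, with a median of −0.34. That gene was Nfyb, an NF-Y subunit, which read 9.95, 9.33 and 10.09 in knockout 1 to 3, against 11.15, 10.85 and 11.04 in wild type 1 to 3 (difference −1.22, SE 0.24, adjusted p = 0.0285). Nfyc, another NF-Y subunit, differed by −0.26 and Tfdp1, the partner of E2F, by −0.56, without passing the test. Genes linked to quiescence and cell cycle arrest fell for 3 of 9 tested genes and rose for 0. The 3 were the inhibitors Cdkn2d (−2.08, adjusted p = 0.00601) and Cdkn1b (−1.32, adjusted p = 0.0260) and the cyclin G gene Ccng2 (−1.54, adjusted p = 0.00621). The antiproliferative gene Btg1 differed by −0.78 (adjusted p = 0.265) and Ccng1 by 0.54 (adjusted p = 0.0955), and neither passed the test. Cdkn1a (p21), an inhibitor named after its value was seen, differed by 1.18 (adjusted p = 0.0535) and did not pass either. Cdkn1a and Ccng1 were the 2 genes of the list that were higher at an unadjusted p of 0.05.

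**Figure D5:**
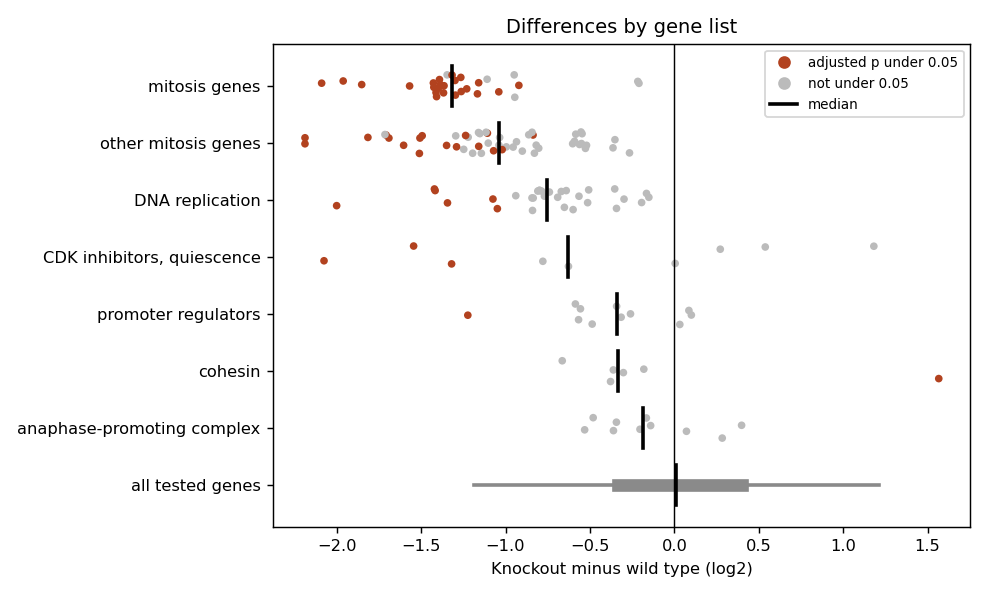
Difference (knockout minus wild type, log2) of every tested gene of the 46-gene set and of the further lists, 1 point per gene, with the median of each list as a black line; for all tested genes the thick bar spans the quartiles and the thin bar the 5th to 95th percentiles. The mitosis genes have a median of −1.32 and the anaphase-promoting complex list one of −0.18.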

How the data were processed

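Thymus RNA of 3 knockout and 3 wild-type samples was measured on 1-colour Illumina arrays, and samples were grouped by their titles. Per the file headers, the authors deposited linear probe intensities, each with its detection p-value, and GenomeStudio 2011.1 is named in the submitters' processing notes. A second table deposited by the authors holds log2 values with a median of 7.48 in every column, within 5e-07 of log2 intensities that were quantile normalized afterwards. It is not centred, and higher values stand for higher signal.

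The intensities were background corrected from the detection p-values with an offset of 16, then quantile normalized and log2 transformed (neqc, limma 3.58.1, R 4.3.3). Probes entered the fit where 3 or more of the 6 arrays had a detection p-value below 0.05, which 14097 of 25697 did. They were fitted with lmFit and eBayes, with genotype alone, and p-values were adjusted by Benjamini-Hochberg over all of them. Where a gene had several tested probes, that of the highest mean over the 6 arrays stood for it. Probe names came from GEO's platform annotation: 23978 probes had 1 gene symbol, 1719 had none and 23962 matched RefSeq. The number of arrays limits the precision. Promoter searches, tables and plots used matplotlib 3.10.9, scipy 1.17.1, pandas 2.3.3 and numpy 2.4.6 under Python 3.11.15, and the fit was tested on simulated data.

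Same-numbered arrays share a number in their titles. Their descriptions end alike in both genotypes, but with numbers other than those of the titles, and with none for replicate 3. The deviations of same-numbered arrays from the genotype means correlated at 0.104, 0.750 and 0.559 over the tested probes. The title numbers were therefore taken as pairs in an alternative with the replicate number as a block. Arrays of different number could correlate as well: knockout 3 with wild type 1 at 0.727, and knockout 1 with wild type 3 at 0.108. Other alternatives changed the background correction, the offset, the normalization, the filter, the probe rule, the moderation and the arrays. Per-array values are given in each role for up to 3 called genes with the largest difference and up to 2 not called. The 46 genes and all lists were chosen with earlier results of these data known.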

Additional observations from a re-analysis of the deposited data

How the results depend on the processing

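Of the 29 mitosis genes, 23 were lower on all 6 arrays, and the count was 22 to 28 with array weights, the authors' log2 values, a stricter filter, the mean of probes, trended robust moderation, no background correction, an offset of 50, the replicate block or (26) without replicate 2 of both genotypes, 16 with median centring and 14 with no detection filter. Leaving out 1 array gave 1 to 22: the single gene left without knockout 1, wild type 1 or wild type 3 was Kif11. Without knockout 2, Aurka, Cdc20, Espl1, Kif2c, Nusap1, Plk4 and Tpx2 no longer passed, without knockout 3 Espl1, Incenp, Kif2c and Top2a, and without wild type 2 Plk4 and Top2a. The median difference stayed between −1.52 and −1.09 throughout. The 51 further mitosis genes had 17 lower, against 50 with array weights, 7 with median centring, 6 with no filter, 39 with the replicate block, 36 without replicate 2 of both genotypes (added after the data had been seen) and 0 to 21 without 1 array. Over all genes, 549 were lower and 600 higher, against 3723 and 3668 with array weights, 1163 and 1223 with the replicate block, 1378 and 1500 without replicate 2, and 84 to 773 and 66 to 733 without 1 array. With median centring 412 of all 9849 genes were lower (4.18%), and with no detection filter 453 of 16593 (2.73%). The array weights did not converge. With the block Bub1b, Kif23 and Prc1 passed, and it changed no other call among the 29 genes. Pttg1 turned positive with array weights (0.12), without knockout 2 (0.20) and without replicate 2 (0.08), and its values without 1 array ran from −0.44 to 0.20. The causes were not tested. A chip block was not run, because no chip is named. The 12 genes with no probe above background are limited by signal.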
